A study of Caenorhabditis elegans with 2 samples.

Results

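The 36 genes described here build the contractile apparatus of the body wall muscle of Caenorhabditis elegans, chosen by name out of 19973 protein-coding genes. Of these, 20 encode parts of the sarcomere, 11 encode proteins that anchor it to the cell membrane, 3 encode basement membrane proteins, and 2 encode a myosin chaperone and an unconventional myosin. RNA polymerase II occupancy at these genes was measured by chromatin immunoprecipitation and sequencing (ChIP-seq) of its large subunit, AMA-1. The material was whole early embryos of the wild-type strain N2, sexes pooled, of unknown age, and both libraries, biological replicates 1 and 2, belong to a single group. No treatment or mutant enters the design, so every value below compares these genes with all protein-coding genes, their own subgroups with one another, or 1 replicate with the other.

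Body wall muscle cells of the worm arise from several founder lineages and are fixed in their fate by a small set of transcription factors, above all the MyoD relative hlh-1. They assemble sarcomeres in the second part of embryogenesis. Thick filaments of myosin and paramyosin are held at the M-line, thin filaments of actin, tropomyosin and troponin at the dense body. Both structures sit on integrins, which bind the perlecan and collagen IV of the basement membrane below the muscle. Embryos that lack many of these proteins stop elongating and are paralysed, the phenotype that gave the pat genes their name. Integrins and their partners, vinculin and the basement membrane collagens also serve other tissues, whereas the filament proteins are mostly muscle products. tni-4 is best known as a troponin I of the pharynx.

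In these embryos polymerase peaks had a higher median rank over the attachment genes than over the sarcomere genes. The median gene length was 5219 bp for the first and 2446 bp for the second. The sarcomere genes reached high ranks in replicate 1 but not in replicate 2. A summit of the 724-peak optimal list lay in the window of 3 members (8.33%, against 3.95% of all genes). These were dys-1 (dystrophin), unc-54 (the major myosin heavy chain) and pat-4 (integrin-linked kinase). In the upper 5000 peaks of replicate 1, 20 of the 36 members had a summit (55.6%, against 16.3% of all genes). In the upper 5000 of replicate 2, 5 had one (13.9%, against 17.3% of all genes). These shares of all genes are not matched for length. All of the 9 sarcomere genes among these 20 were absent from the upper 5000 of replicate 2. In whole embryos, fewer cells of a type and less polymerase per cell cannot be told apart.

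The deposited data are lists of peaks, each with a summit, the position of highest signal, and a signal value made by the authors. The scale of that value is not stated in the labels or notes, so signal served only to rank peaks within a list, with rank 1 the highest. A relaxed list of 30000 peaks, which includes background, was given for each replicate and for both pooled. The optimal list holds the 724 pooled peaks of highest signal, down to a signal value of 50.7, and the pooled signal value was 26.38 at rank 5000 and 8.091 at rank 30000. A gene's window ran from 500 bp before its annotated 5′ end to 500 bp past its 3′ end, and its best rank is that of the highest summit inside. A gene with no summit was placed at rank 30001 for medians. Annotated 5′ ends in this species are often trans-splice sites rather than transcription starts. Read depth is unknown, and no test of members against other genes was made.

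The stretches below show the ground under the summits that carry these results, each 81 bases long, read 5′ to 3′ on the strand of the named gene from the RefSeq WBcel235 genome, which is ce11. The 11 capitals are centred on the summit. The first 3 come from pooled summits past the 3′ end of an attachment gene or of unc-45, a myosin chaperone gene, and the next from a pooled summit in an exon of deb-1 (vinculin). The last 2 are summits of replicate 1 just upstream of a sarcomere gene, mlc-2 (a regulatory light chain) and tni-1 (a troponin I).
pat-4, chrIII:89253-89333, minus strand: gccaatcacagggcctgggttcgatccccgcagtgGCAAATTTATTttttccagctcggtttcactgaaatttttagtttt
pat-6, chrIV:261570-261650, minus strand: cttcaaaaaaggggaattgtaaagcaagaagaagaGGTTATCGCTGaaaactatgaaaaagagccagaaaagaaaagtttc
unc-45, chrIII:502648-502728, plus strand: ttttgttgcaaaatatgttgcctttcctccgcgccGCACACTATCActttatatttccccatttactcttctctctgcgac
deb-1, chrIV:7089542-7089622, minus strand: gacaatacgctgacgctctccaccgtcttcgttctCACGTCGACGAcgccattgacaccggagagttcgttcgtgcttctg
mlc-2, chrX:17456675-17456755, minus strand: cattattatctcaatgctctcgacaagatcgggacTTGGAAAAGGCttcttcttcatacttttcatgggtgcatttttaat
tni-1, chrX:11377541-11377621, minus strand: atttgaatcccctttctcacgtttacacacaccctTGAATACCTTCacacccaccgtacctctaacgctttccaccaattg

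The pat-4 stretch holds GTTCGANNC, the core of the B box, the internal promoter element of tRNA genes that RNA polymerase III uses. Searched for on both strands after this sequence had been seen, the motif lay within 100 bp of 2 of 17 member summits in the upper 5000 pooled peaks (11.8%), those of pat-4 and unc-45, and of 127 of all 5000 summits (2.54%). No annotated noncoding RNA gene lay within 200 bp of the pat-4 summit. At unc-45 the small nucleolar RNA gene F30H5.4 lay within 200 bp of the summit. GC content over the 101 bp around these summits had a median of 43.6% for the 17 in member windows, against 41.6% for the 4687 in any protein-coding window.

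The share of members with a summit lay above that of all genes in most lists. The optimal list reached 3 of 36 members (8.33%), against 3.95% of all genes. The upper 5000 pooled peaks reached 11 members (30.6%), against 17.3% of all genes. Any of the 30000 pooled peaks reached 27 members (75%), against 36.8%. Members are long, with a median of 5288 bp against 2027 bp for all genes, and a longer window takes more summits. All genes were put in 10 classes of equal size by gene length. When each member was given the share of its own length class, the mean over members was 24.5% for the upper 5000 pooled peaks, between the members' own 30.6% and the 17.3% of all genes. Per kb of window the order turned round in the pooled list, with 0.0398 summits of the upper 5000 in member windows, against 0.0742 in all windows. It did not in replicate 1, where the values were 0.0961 and 0.0718. In replicate 2 they were 0.0188 and 0.0743. Of the 426.6 kb of member windows, 178.2 kb belong to 3 giant sarcomere genes that had none of the pooled summits of the upper 5000.

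The replicates gave unlike pictures of the same genes. Replicate 1 placed 20 members in its upper 5000 peaks (55.6%), against 16.3% of all genes. Replicate 2 placed 5 members there (13.9%), against 17.3% of all genes. All 5 were also in the upper 5000 of replicate 1, and the share in both was 13.9% of members, against 11.2% of all genes. The 5 members in both were the attachment genes unc-112, pat-2, pat-4 and dys-1 and the collagen IV gene let-2. The count is of genes, not of shared peaks. For unc-112 and pat-2 the best summits of the 2 replicates lay in peaks that did not overlap. Over the 30000 peaks of a replicate, 31 members had a summit in replicate 1 (86.1%), against 39.9% of all genes, and 21 in replicate 2 (58.3%), against 37.4%.

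By pooled rank the leading genes were dys-1, unc-54, pat-4 and pat-6, as the plot of best ranks by gene shows, and 3 of these 4 are attachment genes.

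**Figure D1:**
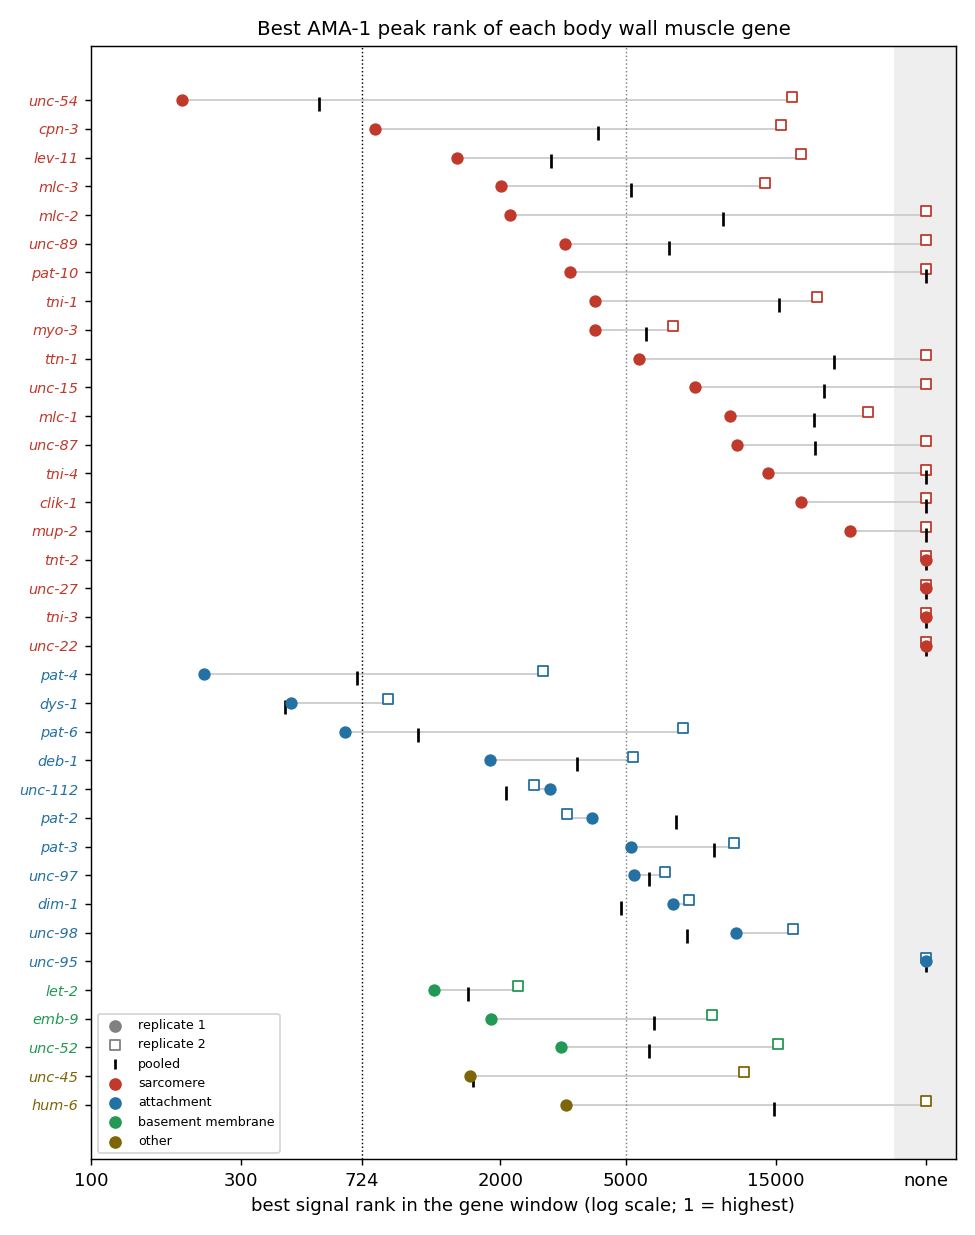
Best signal rank in the window of each of the 36 genes (log axis, 1 the highest) in replicate 1 (filled circles), replicate 2 (open squares) and the pooled list (ticks), coloured by class, with dotted lines at ranks 724 and 5000 and the shaded column for genes without a summit. Grey lines join the replicates, and 29 of the 31 genes with a summit in either replicate have their circle left of their square.

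Thick filament genes come first among the sarcomere genes. unc-54, which encodes the major body wall myosin heavy chain, had its best summit at pooled rank 530, at rank 195 in replicate 1 and at rank 16904 in replicate 2. Its pooled summit (signal 55.63) lay at position 14855671 of chromosome I, 230 bp past the 3′ end. The same base is 156 bp inside the 5′ end of aex-5, the next gene on the same strand, in an exon. The summit thus cannot be credited to either gene alone. In replicate 1, unc-54 also had summits inside its own exons at ranks 2218 and 2964, which no peak of replicate 2 overlapped.

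myo-3, the gene of the second body wall heavy chain, which starts thick filament assembly, ranked 5805 pooled, 4011 in replicate 1 and 7062 in replicate 2. It had the smallest gap between replicates of the 7 sarcomere genes with a summit in both. Its pooled summit lay in an exon near the 3′ end. unc-15, the paramyosin gene, which makes the core of the thick filament, ranked 21417 pooled and 8330 in replicate 1 and had no summit in replicate 2.

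The light chain genes were likewise higher in replicate 1. mlc-3, the essential light chain gene, ranked 5205 pooled, 2009 in replicate 1 and 13908 in replicate 2. mlc-2, a regulatory light chain gene, ranked 10217 pooled and 2149 in replicate 1, with no summit in replicate 2. Its near neighbour mlc-1, another regulatory light chain gene, ranked 19934 pooled, 10744 in replicate 1 and 29535 in replicate 2. The best mlc-2 summit of replicate 1 lay 488 bp past its 3′ end in a window shared with C36E6.2, and its second, at rank 4758, lay 129 bp upstream of the gene in the stretch printed above. Of the 31-base words of mlc-2, 80% occur once in the genome, against 90.1% in mlc-1 and 100% in mlc-3. How far repeated sequence lowers or shifts the signal there was not tested. In all, 4 of the 6 thick filament genes (66.7%) were in the upper 5000 of replicate 1, against 16.3% of all genes. In that of replicate 2 there were 0 of the 6, against 17.3% of all genes.

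Thin filament genes had a median best rank of 30001 pooled, 14177 in replicate 1 and 30001 in replicate 2. cpn-3, a calponin gene, ranked 4091 pooled, 801 in replicate 1 and 15622 in replicate 2, with its pooled summit 161 bp past the 3′ end and in no other window. lev-11, the tropomyosin gene, ranked 2898 pooled, 1456 in replicate 1 and 18054 in replicate 2. All of its summits in the upper 5000 of either list lay in introns, 1 in the pooled list and 4 in replicate 1. Across all 30000 peaks lev-11 had 15 pooled summits, 16 in replicate 1 and 7 in replicate 2. Those of replicate 2 all lay at rank 18054 or lower in signal, in a list that includes background.

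The troponin genes regulate the thin filament by calcium, and none of them was in the upper 5000 pooled peaks. Among all genes of their length classes, 11.4% to 16.5% were. pat-10, the troponin C gene, ranked 3334 in replicate 1, 357 bp past its 3′ end, and had no summit in the pooled list or replicate 2. tni-1 ranked 15410 pooled, 3994 in replicate 1 and 20353 in replicate 2. Its replicate 1 summit lay 111 bp upstream of the gene, and no peak of the pooled list or of replicate 2 overlapped it. Together with the mlc-2 summit above, it was 1 of 2 upstream summits among the 41 that members had in the upper 5000 of replicate 1. That share (4.88%) is near the 6.12% over all genes.

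The other troponin genes had a summit in replicate 1 alone or in no list. tni-4 ranked 14177 in replicate 1 alone and mup-2, a troponin T gene, 25953 in replicate 1 alone. tnt-2, another troponin T gene, and the troponin I genes unc-27 and tni-3 had no summit in any list. unc-87, which encodes a calponin-repeat protein that bundles actin, ranked 20064 pooled and 11291 in replicate 1, with none in replicate 2. The related clik-1 ranked 18008 in replicate 1 alone. Of the 11 thin filament genes, 4 were in the upper 5000 of replicate 1 (36.4%, against 16.3% of all genes). In that of replicate 2 there were 0, against 17.3% of all genes. The pooled one held 2 (18.2%, near the 17.3% of all genes). No pooled summit was found for 7 of the 11, about the proportion among all genes, where 12626 of 19973 had none.

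The 3 genes of giant sarcomere proteins had few or no pooled summits for their length. unc-22, the twitchin gene, is 38311 bp long and had no summit in any of the 30000 peaks of the pooled list, replicate 1 or replicate 2. Of its 31-base words, 99.8% occur once in the genome. The cause of the lack of summits was not tested. ttn-1, the titin gene, is 81724 bp long and ranked 23038 pooled, with 4 summits, and 5535 in replicate 1, with 21 summits. unc-89, the obscurin gene of the M-line, is 55184 bp long and ranked 6890 pooled, with 4 summits, and 3207 in replicate 1, also with 21. Neither ttn-1 nor unc-89 had a summit in replicate 2.

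**Figure D2:**
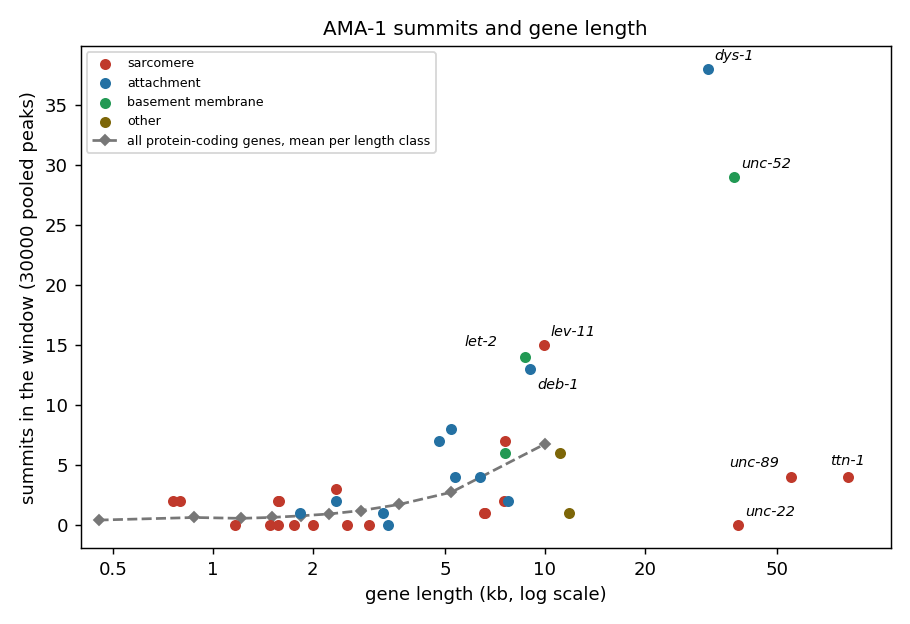
Number of summits of the 30000 pooled peaks in each member's window against gene length (log axis), coloured by class, with the mean for all protein-coding genes in each of 10 length classes as grey diamonds. At over 30 kb, dys-1 has 38 summits and unc-52 29, while unc-22 has 0 and ttn-1 and unc-89 have 4 each.

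Most genes of this length carried many summits. Of the 61 protein-coding genes of at least 30000 bp, 13 (21.3%) had no pooled summit, 27 (44.3%) had one in the upper 5000, and the median count was 19 summits. The members of that length fell on either side of this median: dys-1 with 38 and unc-52 with 29 above it, and ttn-1 and unc-89 with 4 and unc-22 with 0 below it. The plot of summits against gene length shows these 5 genes at the right. In the class of the longest genes, 35.3% had a summit in the upper 5000 pooled peaks and 32.5% had no pooled summit, and of the 14 members in it 7 had the first and 1, unc-22, the second.

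Attachment genes gave 6 of the 11 members in the pooled upper 5000 and 6 of the 20 in that of replicate 1. dys-1, which encodes dystrophin, a link between the actin cytoskeleton and the membrane, ranked 414 pooled, 432 in replicate 1 and 875 in replicate 2. It was the member with the highest pooled and replicate 2 ranks. Its pooled summit (signal 59.58) lay at position 11527229 of chromosome I, in an exon, 311 bp before the 3′ end and 432 bp past the 3′ end of phm-2, which runs toward it from the other side. The best dys-1 summit of replicate 2 is another one, 466 bp past the 3′ end of dys-1 and inside the last part of phm-2. Farther inside the gene, at least 9514 bp from the 3′ end, dys-1 had pooled summits at ranks 3301 and 4278, which lie in no other window.

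pat-4, which encodes the integrin-linked kinase homologue, ranked 698 pooled (signal 51.24), 228 in replicate 1 and 2731 in replicate 2. The pooled summit, at position 89293 of chromosome III, lay 160 bp past the 3′ end of pat-4 and 50 bp past the 3′ end of mrpl-40, a mitochondrial ribosomal protein gene on the other strand. pat-6, which encodes the parvin homologue that binds the kinase, ranked 1094 pooled, 639 in replicate 1 and 7587 in replicate 2. Its summit lay 276 bp past its 3′ end and 73 bp inside the 5′ end of pqbp-1.1, the next gene on the same strand, in an exon. The pat-4 summit thus stands between the 3′ ends of 2 genes, and the pat-6 summit just inside the 5′ end of its neighbour.

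The kindlin gene unc-112 and the integrin genes had pooled ranks between 2091 and 9524. unc-112, whose product binds the integrin tail, ranked 2091 pooled, 2868 in replicate 1 and 2555 in replicate 2. pat-2, the alpha integrin gene, ranked 7246 pooled, 3904 in replicate 1 and 3254 in replicate 2. These were the only 2 members with a better rank in replicate 2 than in replicate 1. The best pat-2 summits of the replicates lay in an exon, 2288 bp from the 3′ end in replicate 1 and 2690 bp from it in replicate 2, in peaks that did not overlap. The best unc-112 summits, in an intron in replicate 1 and past the 3′ end in replicate 2, did not lie in overlapping peaks either. pat-3, the beta integrin gene, ranked 9524 pooled, 5193 in replicate 1 and 11037 in replicate 2.

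The remaining dense body and M-line genes lay between ranks 3509 and 7864 in the pooled list, apart from unc-95. deb-1, the vinculin gene, ranked 3509 pooled, 1851 in replicate 1 and 5299 in replicate 2, with its pooled summit in an exon 4367 bp from the 3′ end. dim-1, which encodes an immunoglobulin-repeat protein of the dense body region, ranked 4853 pooled, 7082 in replicate 1 and 7953 in replicate 2. The pooled summits of deb-1 and dim-1 lie well inside the gene and in no other window. unc-97, the PINCH homologue, ranked 5937 pooled, 5336 in replicate 1 and 6660 in replicate 2, and unc-98, a zinc finger protein gene, 7864, 11210 and 17074. unc-95, which encodes a LIM-domain protein of the dense body, had no summit in any list. It is also among the 4 members with less than 90% unique sequence, at 86.3%.

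The basement membrane genes lay near the attachment genes. let-2, which encodes the alpha 2 chain of collagen IV, ranked 1575 pooled, 1234 in replicate 1 and 2280 in replicate 2. Its pooled summit lay 440 bp past its 3′ end and 99 bp past that of sur-7, and a second, in an exon and in no other window, ranked 2805. emb-9, the alpha 1 chain gene, ranked 6150 pooled, 1862 in replicate 1 and 9421 in replicate 2. Both collagen IV chains join in a single trimer, yet the ranks of their genes differed in every list. unc-52, the perlecan gene, ranked 5917 pooled, 3128 in replicate 1 and 15246 in replicate 2. Across 30000 peaks unc-52 had 29 pooled summits, 33 in replicate 1 and 3 in replicate 2.

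Outside these classes, unc-45, whose product folds myosin heads, ranked 1640 pooled, 1598 in replicate 1 and 11886 in replicate 2. Its pooled summit lay 63 bp past its 3′ end, and no peak of replicate 2 overlapped it. hum-6, which encodes an unconventional myosin, ranked 14857 pooled and 3240 in replicate 1, with none in replicate 2.

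**Figure D3:**
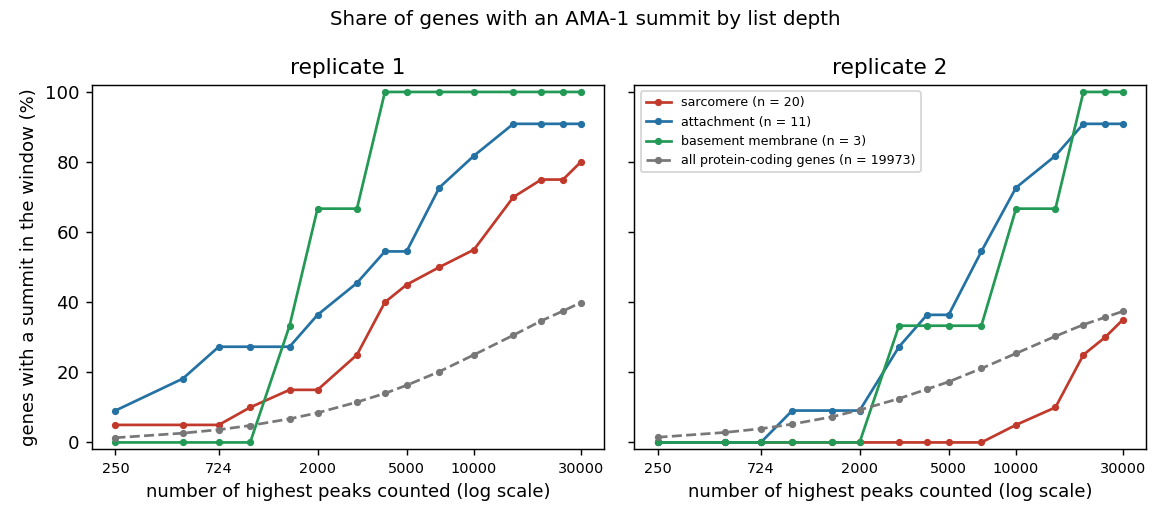
Share of genes with a summit in the window (vertical axis, percent) as more of the highest peaks are counted (log axis), for replicate 1 and replicate 2, with the 3 classes as solid lines and all 19973 protein-coding genes dashed. The sarcomere genes run above all genes in replicate 1 and stay at 0 through rank 5000 in replicate 2, while the attachment genes end at 90.9% in both.

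Side by side, the sarcomere genes had the lowest-ranked median of the 3 classes in both replicates and in the pooled list. The sarcomere genes had a median best rank of 20740.5 pooled, 6932.5 in replicate 1 and 30001 in replicate 2. The attachment genes had 4853 pooled, 3904 in replicate 1 and 6660 in replicate 2, so their replicate values did not overlap those of the sarcomere genes. The basement membrane genes had 5917, 1862 and 9421 in the same lists, a range that takes in the attachment values. All protein-coding genes had a median of 30001 in each list, since most had no summit. These medians are not corrected for length, and a longer window takes more summits. Median gene length was 2446 bp for sarcomere, 5219 bp for attachment and 8744 bp for basement membrane genes.

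By count of genes, whether or not their peaks overlapped, the classes differed in how far the replicates matched. Of the sarcomere genes, 9 of 20 (45%) were in the upper 5000 of replicate 1 and 0 of 20 in that of replicate 2. Of the attachment genes, 6 of 11 (54.5%) were in the first and 4 of 11 (36.4%) in the second. Of the basement membrane genes, all 3 were in the first and 1 in the second. All protein-coding genes gave 16.3% in the first and 17.3% in the second. In the pooled upper 5000, 3 sarcomere genes (15%) and 6 attachment genes (54.5%) had a summit, where genes of the same length gave 21.2% and 25.4%. For the sarcomere genes this is close to the length share, given 3 genes of 20, and more of the attachment genes had a summit than their length share. The plot of shares by list depth shows the sarcomere curve of replicate 2 under that of all genes at every depth drawn from 250 to 30000 peaks.

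The tilt toward replicate 1 ran through nearly the whole set and was noticed after the values were seen. Of the 31 members with a summit in either replicate, 29 (93.5%) ranked higher in replicate 1, against 50.9% of the 8797 protein-coding genes with a summit in either. All 16 such sarcomere genes, 8 of 10 attachment genes, all 3 basement membrane genes and both other genes did so. Over the genes with a summit in both replicates, the median of log2 (replicate 2 rank over replicate 1 rank) was 1.52 for 21 members, 2.79 for 7 sarcomere genes, 0.81 for 10 attachment genes and -0.09 for 6648 protein-coding genes. Of the 20 members in the upper 5000 of replicate 1, 5 (25%) were in that of replicate 2 also, against 2227 of 3264 genes (68.2%). With 1 library on each side this is a difference between these 2 libraries, and its cause was not tested.

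The same counts were read by chromosome and by share of unique sequence. The 11 members on the X chromosome had 2 in the pooled upper 5000 (18.2%), against 10.3% of all genes on X. The 25 autosomal members had 9 (36%), against 18.4% of autosomal genes. Genes of the same length classes, on any chromosome, gave 19.5% for the members on X and 26.6% for the autosomal members. Of the autosomal members, 16 (64%) were in the upper 5000 of replicate 1, against 17.2% of autosomal genes. In that of replicate 2 there were 4 (16%), against 18.4%. Of the 22 autosomal members with a summit in either replicate, 20 ranked higher in replicate 1, and of the 28 such members with at least 90% unique sequence, 26 did.

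**Figure D4:**
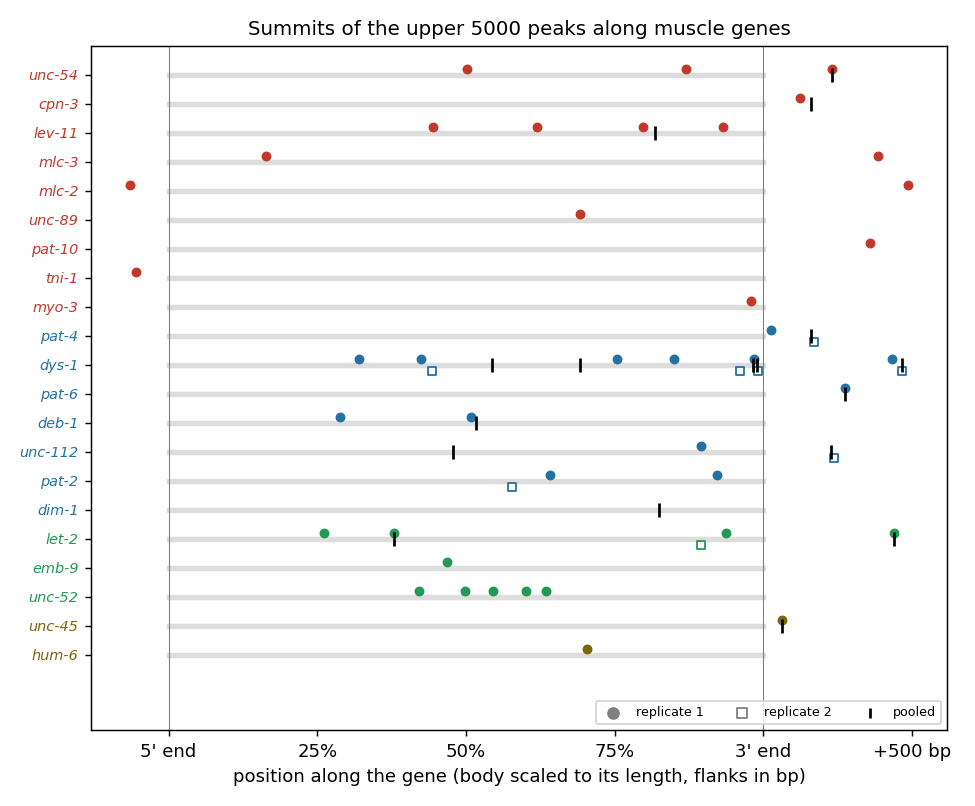
Summits of the upper 5000 peaks along the 21 members that had one, with the gene body scaled to its length and each 500 bp flank drawn to a common scale: replicate 1 (filled circles), pooled (ticks) and replicate 2 (open squares), coloured by class. Of the 17 pooled summits, 8 lie past the 3′ end and 0 upstream of the 5′ end.

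In the pooled list about as many summits lay inside the members as past their 3′ ends. Of the 17 pooled summits of the upper 5000 in member windows, 8 (47.1%) lay past the 3′ end, against 26.9% of such summits over all genes. Another 6 lay in exons (35.3%, against 38.8%) and 3 in introns (17.6%, against 22.1%). None lay upstream, where all genes had 6.99%. In replicate 1, 10 of 41 member summits (24.4%) lay past the 3′ end, against 23.7% over all genes, and in replicate 2 it was 3 of 8 (37.5%), against 26.8%. The plot of summits along the genes shows several inside the bodies of dys-1, lev-11 and unc-52, away from the 5′ end. The nearest to it lay 9881 bp into dys-1, 4406 bp into lev-11 and 15633 bp into unc-52, each in replicate 1. In pat-4, pat-6, pat-10, cpn-3 and unc-45 they lay only past the 3′ end.

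Several of these summits belong as much to a neighbour as to the member. All 3 optimal summits, at dys-1, unc-54 and pat-4, lay in the window of another protein-coding gene, and so did the best pooled summits of pat-6, let-2 and unc-112, the last in an intron of gasr-8. Of the 17 pooled summits, 10 (58.8%) lay in a member's window alone, against 50.7% over all genes. Counting only summits in a single window left 8 members in the pooled upper 5000 and 0 in the optimal list. The upper ranks of unc-54, pat-4 and pat-6 rest on summits shared with another protein-coding gene, whereas those of deb-1, dim-1, cpn-3, lev-11 and unc-45 do not. The unc-45 summit, however, lay within 200 bp of the small nucleolar RNA gene F30H5.4, so it cannot be credited to unc-45 alone.

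Promoter sequence was searched for the letters of the E-box. CAGCTG, an E-box form bound by MyoD-family factors in vertebrates and in the worm, was found between 250 bp before and 50 bp after the 5′ end in 0 of 36 members, against 1108 of 19973 genes (5.55%). The general E-box CANNTG, which includes it, was found in 22 members (61.1%), against 69.4% of genes. Both are palindromes, so 1 strand covers both. These are letter matches in 1 window and say nothing of binding.

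Further muscle genes that are not among the 36 were read in the same way. Their counts stand beside shares of all genes that are not matched for length. Among 6 muscle regulators, hlh-1, the MyoD homologue, ranked 988 pooled, 353 in replicate 1 and 1359 in replicate 2, with its best pooled summit 68 bp upstream of the gene. pal-1, a caudal homologue that acts before hlh-1 in posterior lineages, ranked 3771, 9804 and 3733. unc-120, an SRF-like factor, ranked 15536 in the pooled list and ceh-51, a homeodomain factor, 17726. Of the 6 regulators, 2 had a summit in the upper 5000 pooled peaks, against 17.3% of all genes. No pooled summit was found for 2 of the 6, where 12626 of all 19973 genes had none. Of the 4 regulators with a summit in either replicate, 2 ranked higher in replicate 1.

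Of 16 further sarcomere and attachment genes, 5 were in the upper 5000 of the pooled list, 6 in that of replicate 1 and 4 in that of replicate 2. The same lists held 17.3%, 16.3% and 17.3% of all genes. The first 4 of the 16 by pooled rank were tln-1 (talin), pkn-1 (protein kinase N), unc-60 (cofilin) and uig-1 (a guanine nucleotide exchange factor). tln-1 ranked 380 pooled, 220 in replicate 1 and 667 in replicate 2. unc-60 ranked 2315, 1455 and 2100, and pkn-1 ranked 1383, 775 and 262. uig-1 ranked 3168 pooled, 1382 in replicate 1 and 14177 in replicate 2, so it too was low in replicate 2. In this list 12 of 16 genes ranked higher in replicate 1.

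Of 12 further basement membrane genes, 5 were in the pooled upper 5000, 6 in that of replicate 1 and 6 in that of replicate 2. The same lists held 17.3%, 16.3% and 17.3% of all genes. An optimal summit was found for 2 of the 12, against 3.95% of all genes. lam-1, the laminin beta gene, ranked 52 pooled, 75 in replicate 1 and 53 in replicate 2, higher than any of the 36 members in the pooled list, and held 10 summits of the upper 5000. lam-2 (laminin gamma) ranked 607, 1679 and 336. epi-1 (laminin alpha) ranked 844, 590 and 629, and ost-1 (SPARC) ranked 996, 478 and 4183. Of the 10 such genes with a summit in either replicate, 6 ranked higher in replicate 1. These laminin genes were in the upper 5000 of both replicates, as was let-2 among the members.

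Of 9 genes that attach muscle to the hypodermis, 2 were in the pooled upper 5000, against 17.3% of all genes. vab-10 (spectraplakin) ranked 998 pooled, 364 in replicate 1 and 1452 in replicate 2, with 14 summits of the pooled upper 5000. let-805 (myotactin) ranked 4774 in the pooled list, vab-19 5478 and pat-12 5899. In this list 5 of 7 genes with a summit in either replicate ranked higher in replicate 1.

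Genes of the pharyngeal muscle, which forms from other cells, were mostly without a pooled summit. This was so for 7 of 8 genes, among them the pharyngeal myosin genes myo-1 and myo-2, where 12626 of all 19973 genes had none. The exception was pha-4, the pharynx selector gene, at ranks 3606 pooled, 3555 in replicate 1 and 4936 in replicate 2. Of 10 genes for excitation and calcium handling, 2 were in the pooled upper 5000 and 6 had no pooled summit, both near the proportions among all genes. sca-1, the calcium pump gene, ranked 1076 pooled, 1444 in replicate 1 and 1027 in replicate 2, and slo-1, a potassium channel gene, ranked 4791, 1860 and 15769. unc-68 (the ryanodine receptor) ranked 5241 and egl-19 (a calcium channel) 13222 in the pooled list.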

How the data were processed

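AMA-1 ChIP-seq peaks of 2 biological replicates, each from its own biosample, were read from the lists the authors made on ce11. Per the deposited text notes, the relaxed lists were input to the irreproducible discovery rate procedure, the optimal list was derived from them, and 1 control served both replicates. The signal is the authors' deposited value per peak, with its scale not given in the sources used here, nor are aligner, peak caller or threshold. The deposited summit offset was added to the peak start. The ce10 lists were not used here. Depth is unknown, so no interval was given.

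Genes came from Ensembl release 115 and sequence from RefSeq, both WBcel235, read with Python 3.11.15 and NumPy 2.4.6. A summit in several windows was credited to each gene. Position was assigned as upstream, exon, intron, 3′ UTR or past the 3′ end. Window assignment was checked with made-up summits placed on annotated genes, against a direct count. All 36 members were named, with neighbours that share a summit of the optimal or upper 5000 pooled peaks and up to 4 genes of each further list by pooled rank. Names outside that rule (C36E6.2, F30H5.4, myo-1, myo-2) were chosen after their values were seen. Of 62 further listed genes, 1 (tmd-1) was not matched. Members and lists were chosen with earlier results of these data known, so counts stand beside those of all genes without a test. The comparison of replicate ranks and the B box search were chosen after the values were seen. Other windows, single-window summits, list sizes and each replicate alone were tried.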

Additional observations from a re-analysis of the deposited data

How the results depend on the processing

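No paired analysis was possible because there is 1 group. Leaving out the downstream flank, alone or with the upstream one, gave in both cases 1 member in the optimal list (against 3), 6 in the pooled upper 5000 (against 11), 3 in the upper 5000 of both replicates (against 5) and an attachment median rank of 9524 (against 4853). Summits in a single gene window gave 0 members in the optimal list, 3 in both replicates and an attachment median of 7246. With fewer or more peaks, the optimal count was 0 in a stricter upper part of the optimal list and 6 in the upper 2000 pooled peaks. The upper 5000 count became 6 in the upper 2000 and 20 in the upper 10000, and the count in both replicates 1 and 11. In the upper 10000 there were 0.11 summits per kb of member windows (against 0.0398).

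Leaving out a replicate, with the other's own list in place of the pooled one, gave 0 to 4 members for the optimal list, 5 to 20 for the upper 5000 and 0.0188 to 0.0961 summits per kb. The lower count of each range came from replicate 2 alone. Median ranks then ran from 6932.5 to 30001 for sarcomere genes, 3904 to 6660 for attachment genes and 1862 to 9421 for basement membrane genes. The cause of these shifts was not tested. Sarcomere genes had a lower-ranked median than attachment genes in every setting run for both, and the other 31 values moved by less than the spread between replicates or by less than 1.5 times. Members ranked higher in replicate 1 numbered 26 of 29 without flanks, 26 of 29 in single windows and 23 of 25 in the upper 10000, with settings chosen after seeing the data.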
